A study of Canis lupus familiaris with 14 samples.

Results

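Secreted Wnt antagonists were measured as RNA in osteosarcoma, a bone-forming cancer, and in normal bone, each taken from the same 7 dogs. A list of 6 genes was set, SFRP2, SFRP1, SFRP4, FRZB, WIF1 and DKK1, and each was to be found through the symbols that the supplementary tables of the study pair with Ensembl identifiers. SFRP2 (ENSCAFG00000008353), SFRP1 (ENSCAFG00000005737), FRZB (ENSCAFG00000024988) and WIF1 (ENSCAFG00000000364) were found, 4 of the 6 genes and 4 of the 27655 genes with at least 1 count. SFRP4 and DKK1 could not be paired with an identifier and were not analysed here. The symbols held are mainly those of genes that the study called significant on these same samples, so being on the list of 4 already depended on the difference between tumor and bone. The directions given here are therefore a description and not independent evidence.

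Wnt proteins are secreted signals that bind frizzled receptors together with the coreceptors LRP5 or LRP6, and in the canonical branch this stabilizes beta-catenin, which then acts with TCF and LEF factors on target genes. The pathway can be held back outside the cell. Secreted frizzled-related proteins (SFRP1, SFRP2 and FRZB, which is also known as SFRP3) carry a domain that resembles the ligand-binding part of frizzled and bind Wnt proteins, and WIF1 binds Wnt proteins through a domain of its own. DKK1 and sclerostin, the product of SOST, instead bind the LRP coreceptors. In bone, canonical Wnt signaling drives the formation of osteoblasts, and osteocytes release sclerostin as a brake on it.

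Each dog gave 1 library of bone and 1 of tumor, 14 in all, from polyadenylated RNA taken before any chemotherapy. The bone was the second phalanx of the amputated limb, and it was used as the normal reference of the same animal. Dogs A and F were Golden Retrievers, D and G Greyhounds, B a Rottweiler, C a Doberman Pinscher and E a Great Pyranees, as the labels spell it. The tumor lay in the distal radius of dogs A, C, E and F, the proximal humerus of dog D, the distal femur of dog B and the distal tibia of dog G. The study lists the ages of the dogs, which are not in the labels and were not used here. The phalanx is a different bone from the tumor site in every dog. RNA was extracted by different protocols from bone and from tumor, so tissue and extraction cannot be told apart. Total counts ran from 22564544 to 34479429 in bone and from 18650945 to 32887213 in tumor. A single gene, ENSCAFG00000017018, held 29.5% of the counts in the bone and 26.3% in the tumor of dog E. Levels below are counts divided by the DESeq2 size factor of the library (normalized counts). They do not correct for gene length, so they are compared between libraries and never between genes.

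SFRP2 had more counts in tumor than in bone in every dog, and no other of the 4 antagonists did. In bone its normalized counts ran from 225 in dog E over a median of 1304 to 7447 in dog A. In tumor they ran from 2042 in dog F over a median of 14074 to 126513 in dog E. The dog with the lowest bone level had the highest tumor level, but dog A, with the highest bone level, came next in tumor (49891). Only the tumor of dog F lay within the range of the 7 bone libraries, and the other 6 lay above it.

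SFRP2 averaged 2987 ± 3155 normalized counts over the 7 bones and 37042 ± 43476 over the 7 tumors (mean ± SD, n = 7), with a spread larger than the mean in both. The ratio of tumor to bone within an animal was 1.82 for dog D, 3.44 for dog F, 6.62 for dog C and 6.70 for dog A. It was 14.2 for dog B, 15.2 for dog G and 563 for dog E, far from the rest. The fitted log2 ratio of tumor to bone was 3.18 with a standard error of 0.81 and an adjusted p of 0.0603 (unadjusted 0.00277) in edgeR's quasi-likelihood test, which misses the threshold of 0.05. Without dog E it was 2.63 with an adjusted p of 0.0178. With dog B left out the adjusted p rose to 0.144.

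FRZB, named for frizzled-related protein and known from cartilage and bone, fell in tumor. In bone its normalized counts ran from 290 in dog E over a median of 1320.1 to 3327 in dog C, and in tumor from 40.7 in dog C over a median of 144 to 565 in dog A. Dog C thus had the highest bone level and the lowest tumor level. Dog A, with nearly the same bone level (3279), had the highest tumor level. The tumor of dog A lay within the range of bone and the other 6 lay below it. Every tumor was below the bone of its own dog, with a ratio of bone to tumor of 81.7 for dog C, 31.0 for dog B, 19.7 for dog D, 6.57 for dog G and 5.81 for dog A. The ratio was smallest in dogs E (2.02) and F (1.60), whose bones held the least FRZB.

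FRZB averaged 1775 ± 1337 normalized counts over the bones and 186 ± 179.5 over the tumors (mean ± SD, n = 7). The fitted log2 ratio was -3.18 with a standard error of 0.70, and its adjusted p of 0.0356 in edgeR's test passed. In size it equalled that of SFRP2, with the opposite sign. FRZB lost significance when dog A, B, C, D or G was left out, with adjusted p-values between 0.0502 (without dog C) and 0.0865 (without dog B), and kept it without dog E or dog F. Without dogs A and B together, the dogs whose tumor or bone had the poorest RNA quality in the study, the log2 fold change was -2.90 with an adjusted p of 0.203.

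WIF1 varied far more among tumors than among bones. In bone its normalized counts lay between 28742 in dog G and 91036 in dog A, with a median of 58618, a range of 3.17-fold. In tumor the lowest was 129 (dog B) and the highest 236592 (dog C), with a median of 6156, a range of 1835-fold. No tumor fell inside the range of the 7 bones: 6 lay below it and the tumor of dog C lay above it. The SD of log2 normalized counts (pseudocount 1) was 0.51 in bone and 3.51 in tumor, at the 66.4th percentile in bone and the 99.2nd percentile in tumor of the 16366 genes with a mean above 10.

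Compared with the bone of the same dog, WIF1 was lower 397-fold in the tumor of dog B, 47.6-fold for dog G, 14.4-fold for dog A, 11.7-fold for dog E and 9.70-fold for dog F. For dog D the tumor was lower by only 1.69-fold. For dog C it was 4.04-fold higher, where its reads made up 0.997% of all counts of the library. The fitted log2 ratio over the group, -3.46 with a standard error of 1.16, did not pass (adjusted p = 0.138 in edgeR's test). Leaving out dog C gave -4.15 with an adjusted p of 0.0533. When the dog was not a term in the test, the log2 ratio was -0.50 with an adjusted p of 0.813. The plain means were 56555 ± 19029 normalized counts over the bones and 40229 ± 87040.4 over the tumors (mean ± SD, n = 7).

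SFRP1 was the least counted of the 4, with 30 to 371 reads per bone library and 2 to 128 per tumor library. Its normalized counts ran from 39.2 in dog E over a median of 128 to 293 in dog G in bone, and from 2.55 in dog C over a median of 53.1 to 150.5 in dog G in tumor. The tumors of dogs C, D and F lay below the range of bone, and the other 4 lay within it. In dogs C and D the tumor libraries held only 2 and 3 reads. The ratio of bone to tumor was 36.9 in dog C (95% interval 9.96 to 309, exact, counting error only) and 93.2 in dog D (31.6 to 454). In dog E the tumor held more than the bone, with a ratio of bone to tumor of 0.737 and an interval that begins at 0.447 and includes 1. The fitted log2 ratio was -1.75 with a standard error of 0.81 (adjusted p = 0.296 in edgeR's test), and with 1 dog left out the adjusted p stayed between 0.231 and 0.478.

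**Figure D1:**
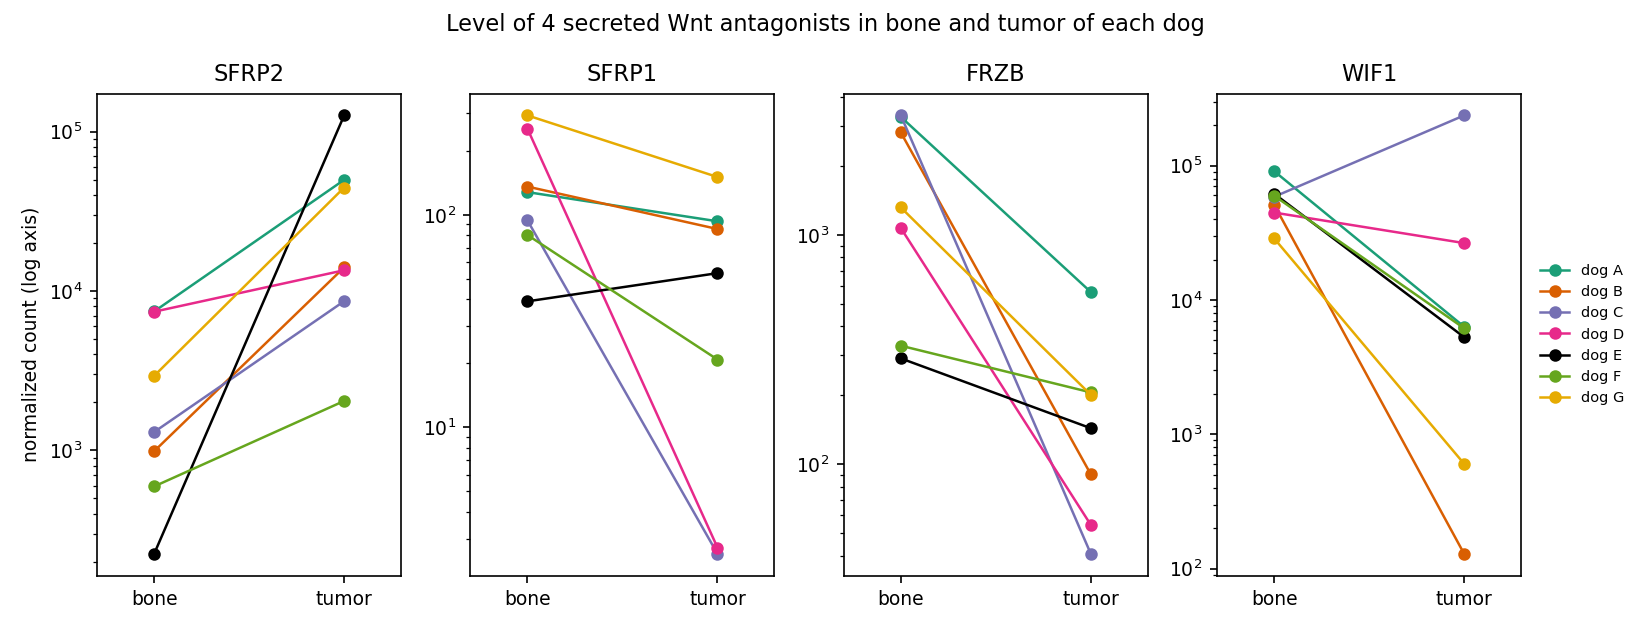
Normalized counts (log axis, a separate scale for each gene) of SFRP2, SFRP1, FRZB and WIF1 in bone and tumor, with a line joining the 2 libraries of each dog. All 7 lines of SFRP2 slope upward and all 7 of FRZB downward, the line of WIF1 slopes upward only for dog C (58618 to 236592), and that of SFRP1 only for dog E (39.2 to 53.1).

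Of the 4 genes, 1 passed all thresholds (adjusted p under 0.05, mean over 10 normalized counts and more than a 2-fold change), FRZB on the lower side, and 0 did so on the higher side. Over all 27655 genes, 1.79% passed as lower and 1.35% as higher in tumor. Over the 2292 genes with a symbol the shares were 18.8% and 15.5%, so a gene with a symbol was far more often significant to begin with, and the 4 genes give too few to read against it. The study itself called genes with the Wald test of DESeq2, dog and tissue being its terms. Rerun here, that test passed 7.37% of all genes and 76.4% of those with a symbol, in either direction, so its passes among genes with a symbol largely restate how the symbols came to be held. They support nothing about the genes named here. The median log2 fold change was -2.47 over the 4 genes, -0.80 over the genes with a symbol and -0.05 over all genes. SFRP2 was among the 4.65% of all genes that were higher in all 7 tumors, and FRZB among the 4.71% that were lower in all 7. For none of the 4 did the bone and tumor libraries separate without overlap, which 2.92% of all genes did.

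The difference of the variance-stabilized counts (log2 scale) between tumor and bone was used for single dogs, as the study did. For SFRP2 it ran from 0.86 in dog D to 8.63 in dog E with a median of 2.73, and for FRZB from -4.81 in dog C to -0.51 in dog F with a median of -2.35. For WIF1 it ran from -7.87 in dog B to 2.01 in dog C with a median of -3.52, the widest span of the 4. For SFRP1 it ran from -2.43 in dog D to 0.19 in dog E with a median of -0.68. This transformation pulls low counts together, so the SFRP1 differences are smaller on this scale than its ratios of counts.

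**Figure D2:**
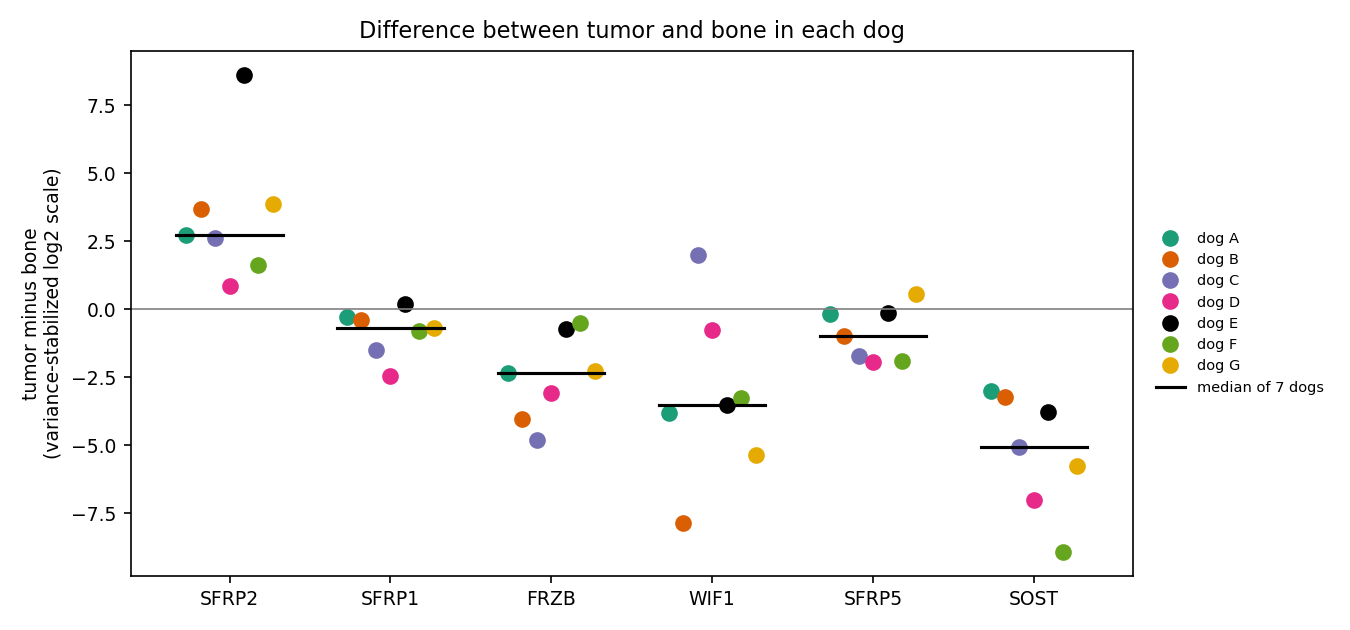
Difference between tumor and bone of each dog (variance-stabilized log2 scale) for the 4 antagonists and for SFRP5 and SOST, with a bar at the median of the 7 dogs. The 7 points of SFRP2 lie above 0 and those of FRZB and SOST below it, dog C is the only point of WIF1 above 0 (2.01), and dog E lies apart for SFRP2 (8.63).

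In 5 of the 7 tumors SFRP2 was the only antagonist of the 4 above the range of bone, and dogs C and F departed from this. The tumor of dog C stood out as the only 1 with both SFRP2 and WIF1 above the range of bone, while its SFRP1 and FRZB were below that range. The tumor of dog D had SFRP2 above and the other 3 below. The tumors of dogs B, E and G shared 1 pattern, with SFRP2 above, SFRP1 within, and FRZB and WIF1 below. In dog A, SFRP2 was above, SFRP1 and FRZB within and WIF1 below. In dog F, SFRP2 was within the range of bone and the other 3 were below it, so none of the 4 was above the range of the 7 bones there. Counted over dogs, SFRP2 was above the bone range in 6 tumors, WIF1 in 1, and SFRP1 and FRZB in 0. The range rests on 7 libraries and is no reference interval.

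The spread among tumors can also be read against the median tumor of each gene. The tumor of dog E held 8.99 times the median of SFRP2, dog A 3.54 times and dog G 3.17 times, while dog F held 0.145 times. For WIF1, dog C held 38.4 times the median and dog D 4.31 times, while dogs G and B held 0.098 and 0.0209 times. For FRZB only dog A was more than 2 times the median, at 3.93, and for SFRP1 only dog G, at 2.83. The dogs at the top thus differed from gene to gene: E for SFRP2, C for WIF1, A for FRZB and G for SFRP1.

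A ratio of 2 genes within a library, set in tumor against bone, does not depend on gene length. The ratio of SFRP2 to each of the other 3 antagonists was higher in tumor than in bone in all 7 dogs. On the log2 scale (pseudocount 1) the shift of SFRP2 to FRZB ran from 2.45 in dog F to 10.14 in dog E, with a median of 6.63. The shift of SFRP2 to SFRP1 ran from 3.20 (dog A) up to 8.70 (dog E), with a median of 4.88. The shift of SFRP2 to WIF1 was the most uneven, with 0.71 for dog C, 1.62 for dog D and 5.06 for dog F against 12.45 for dog B and 12.68 for dog E. These ratios follow from genes listed with opposite directions, so they were not tested.

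**Figure D3:**
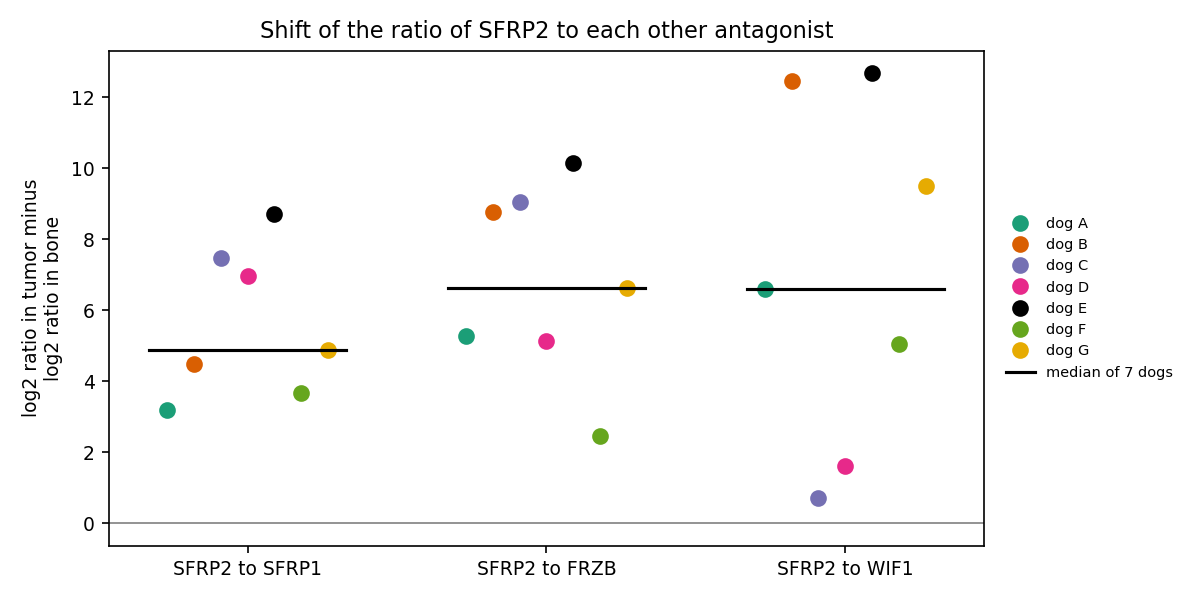
Shift of the log2 ratio of SFRP2 to SFRP1, FRZB and WIF1 between the tumor and the bone of each dog, with a bar at the median. All 21 points lie above 0, and dogs C (0.71) and D (1.62) have the smallest shifts for WIF1.

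Of 10 other secreted antagonists listed, 2 had a symbol, and neither was higher in the group. SOST (ENSCAFG00000028730) fell, with fewer counts in every tumor than in its own bone. It averaged 16326 ± 19302 normalized counts over the bones and 581 ± 1378 over the tumors (mean ± SD, n = 7). The mean over the tumors came mostly from dog E, and the median was 16.8. The fitted log2 ratio was -6.93 with a standard error of 1.16 (adjusted p = 0.0109 in edgeR's test). Without the dog as a term it was -4.83 with an adjusted p of 0.0857, and without dogs A and B it was -8.11 with an adjusted p of 0.0638. Its bone level ran from 675 (dog A) to 51575 (dog E). The tumor of dog E, with 3696, was the only 1 inside that range. SFRP5 (ENSCAFG00000009259), another frizzled-related protein, averaged 366 ± 175 normalized counts over the bones and 231 ± 257 over the tumors, and its log2 ratio of -1.56 (adjusted p = 0.187 in edgeR's test) did not pass. SFRP5 was lower in 6 tumors and higher in dog G, where the bone held 356 normalized counts and the tumor 563.

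Across the dogs, the levels of the 4 antagonists, SFRP5 and SOST were related to each other within each tissue, 15 pairs in bone and 15 in tumor. In none of the 30 was the exact permutation p under 0.05 after Benjamini-Hochberg adjustment, and for Pearson's r it was under 0.05 before adjustment in 7. The pair with the highest Spearman rho in both tissues was SFRP2 with SFRP5. In tumor it had r = 0.82 (exact permutation p = 0.0256, adjusted 0.183, n = 7 dogs) and rho = 0.89 (p = 0.0123, adjusted 0.185, exact permutation). Without dogs E and F, the farthest from the median of SFRP2, r was 0.97. In bone it had r = 0.84 (exact permutation p = 0.0169, adjusted 0.183, n = 7 dogs) and rho = 0.89 (p = 0.0123, adjusted 0.185), with r = 0.78 without dogs A and E. SFRP1 and WIF1 went opposite ways in tumor, with r = -0.83 (exact permutation p = 0.0208, adjusted 0.183, n = 7 dogs) and rho = -0.71 (p = 0.0881, adjusted 0.299). Without dogs C and D that r was -0.53. These are the tumors with 2 and 3 reads of SFRP1, and dog C also had the highest WIF1.

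The genes whose levels followed each antagonist most closely over the 7 tumors were looked for among the 2278 other genes with a symbol and a mean above 10. With 7 points, high values of r are common in such a search: 45 genes had r over 0.9 with SFRP2, 21 with SFRP1, 13 with FRZB and 10 with WIF1. At the other end, 72 genes had r under -0.9 with SFRP2, 25 with SFRP1, 6 with FRZB and 4 with WIF1. For SFRP2 the first 3 were XG (r = 0.99), LOC482919 (0.97) and SERPINF1 (0.97), which encodes the secreted antiangiogenic factor PEDF. SERPINF1 ran from 1025.0 normalized counts in the tumor of dog F to 43487 in that of dog E, the same 2 ends as SFRP2, but over the bones its r with SFRP2 was -0.60. For SFRP1 they were the integrin gene ITGA9 (0.98), the ligand gene WNT11 (0.97) and LOXL2 (0.96), an enzyme that crosslinks collagen.

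WNT11 was lowest in the same 2 tumors as SFRP1, with 2.72 normalized counts in dog D and 5.09 in dog C, and highest in dog G, with 88.2. In these 2 tumors both genes rested on only a few reads. For FRZB the first 3 were TMEM74B (0.99), LOC478509 (0.97) and the sarcoglycan gene SGCA (0.96), which ran from 53.4 in dog C to 1122 in dog A. For WIF1 they were CDC42EP3 (0.95), ANXA9 (0.94) and LIFR (0.93), the receptor of leukemia inhibitory factor. LIFR was highest in the tumor of dog C, at 5523 normalized counts, and lay between 150.5 (dog G) and 1066 (dog D) in the other 6. Its r with WIF1 over the bones was 0.57.

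The other genes of the pathway were taken from a list of 88, of which 24 had a symbol. Of these, 1 was significantly higher, 5 were significantly lower and 18 did not pass, with a median log2 fold change of -1.44. The shares over all genes were 1.35% higher and 1.79% lower, and over genes with a symbol 15.5% and 18.8%, and the 5 of 24 lower genes lie near the latter. Like the 4 antagonists, these 24 genes carry a symbol mainly because the study called them, and their directions are no independent evidence.

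Among 19 genes of Wnt ligands, 7 had a symbol and 1 passed in edgeR's test, whereas all 7 passed with the DESeq2 Wald test, beside 76.4% of genes with a symbol. WNT5B (ENSCAFG00000015919) rose, with averages of 58.0 ± 37.1 normalized counts over the bones and 411 ± 230.0 over the tumors (mean ± SD, n = 7) and more counts in every tumor than in its own bone. The fitted log2 ratio was 2.72 with a standard error of 0.59 (adjusted p = 0.0335 in edgeR's test). It lost significance without dog A, B, C, D or G, with an adjusted p of up to 0.0920, and without dogs A and B together (0.221). The log2 fold change was -4.54 for WNT6 (adjusted p = 0.0527), 1.10 for WNT2B (0.103) and -1.30 for WNT10B (0.178). WNT6 passed without dog A (adjusted p = 0.0411), after a filter on low counts (0.0446), with limma-voom (0.0227) and without the dog as a term (0.0310), and WNT2B with limma-voom (0.0339) and without the dog as a term (0.0385). WNT6 had a median of 13.7 normalized counts over the bones, with 1 bone at 142, and no reads in 5 of 7 tumors, so its fitted value depends on the prior count of the fit. Of the 7 genes of secretion factors and agonists, 3 had a symbol and 0 passed in edgeR's test, although 2 had an unadjusted p under 0.05 and all 3 passed with the DESeq2 Wald test, through which their symbols are mainly held. RSPO1 had a log2 fold change of -3.77 (adjusted p = 0.0985), NDP of -1.88 (0.197) and RSPO3 of -1.62 (0.349). RSPO1 passed with limma-voom (adjusted p = 0.0355) and in edgeR without the dog as a term (0.0247). RSPO1 and RSPO3 encode R-spondins, which strengthen Wnt signals, and NDP encodes norrin, a frizzled ligand that is not a Wnt.

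Of 19 receptor genes 7 had a symbol, and 4 of these fell, beside 1.79% lower over all genes and 18.8% over genes with a symbol. FZD7 (ENSCAFG00000012407), a frizzled receptor, averaged 1323 ± 257 normalized counts over the bones and 424 ± 188 over the tumors (mean ± SD, n = 7), and its log2 ratio was -1.79 with a standard error of 0.28 (adjusted p = 0.00865 in edgeR's test). Its lowest bone level, 1017, was above its highest tumor level, 609.9. LRP4 (ENSCAFG00000008977), a receptor that binds sclerostin, had a log2 fold change of -2.06 (adjusted p = 0.0135). The coreceptor gene LRP5 (ENSCAFG00000010871) had -1.26 (adjusted p = 0.0135) and FZD5 (ENSCAFG00000013547) had -1.60 (adjusted p = 0.0264). FZD2, named after its values were seen, was the only receptor of the 7 with a higher fitted level in tumor. Its log2 ratio of 1.67 did not pass (adjusted p = 0.148 in edgeR's test), with more counts in 6 of 7 tumors. Its adjusted p was 0.0376 with limma-voom and 0.0475 in edgeR without dog C. FZD7, LRP4 and LRP5 were lower in all 7 tumors and passed with any 1 dog left out. Without dogs A and B together LRP5 passed, whereas FZD7 (adjusted p = 0.0839) and LRP4 (0.103) did not. FZD5 was lower in 6, and did not pass without dog A, B, F or G (adjusted p up to 0.0748) or dogs A and B together (0.185), or without the dog as a term (0.0732).

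None of the 6 genes of the remaining lists passed in edgeR's test, although all 6 had an unadjusted p under 0.05. With the DESeq2 Wald test 4 of them passed, again beside 76.4% of genes with a symbol. TCF7L1 and TCF7L2, transcription factors that bind beta-catenin, had log2 fold changes of -0.60 (adjusted p = 0.0608) and -0.87 (0.0710), and were 2 of 16 listed. APCDD1, a membrane inhibitor and the only 1 of 6 with a symbol, had -1.32 (adjusted p = 0.170, and 0.0310 without dog F). Of 16 target genes, 3 had a symbol. CCN5 had a log2 fold change of -3.73 (adjusted p = 0.0557), with no overlap between the bone and tumor libraries. Its adjusted p was 0.04995 after a filter on low counts, 0.0351 without the dog as a term and 0.0208 with limma-voom. The log2 fold change was -2.45 for LGR5, itself a receptor of R-spondins (adjusted p = 0.208), and 2.05 for SP5, which the pathway switches on directly (0.267). Most targets, AXIN2 and LEF1 among them, had no symbol and were not analysed here, so these genes do not give the state of the pathway.

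**Figure D4:**
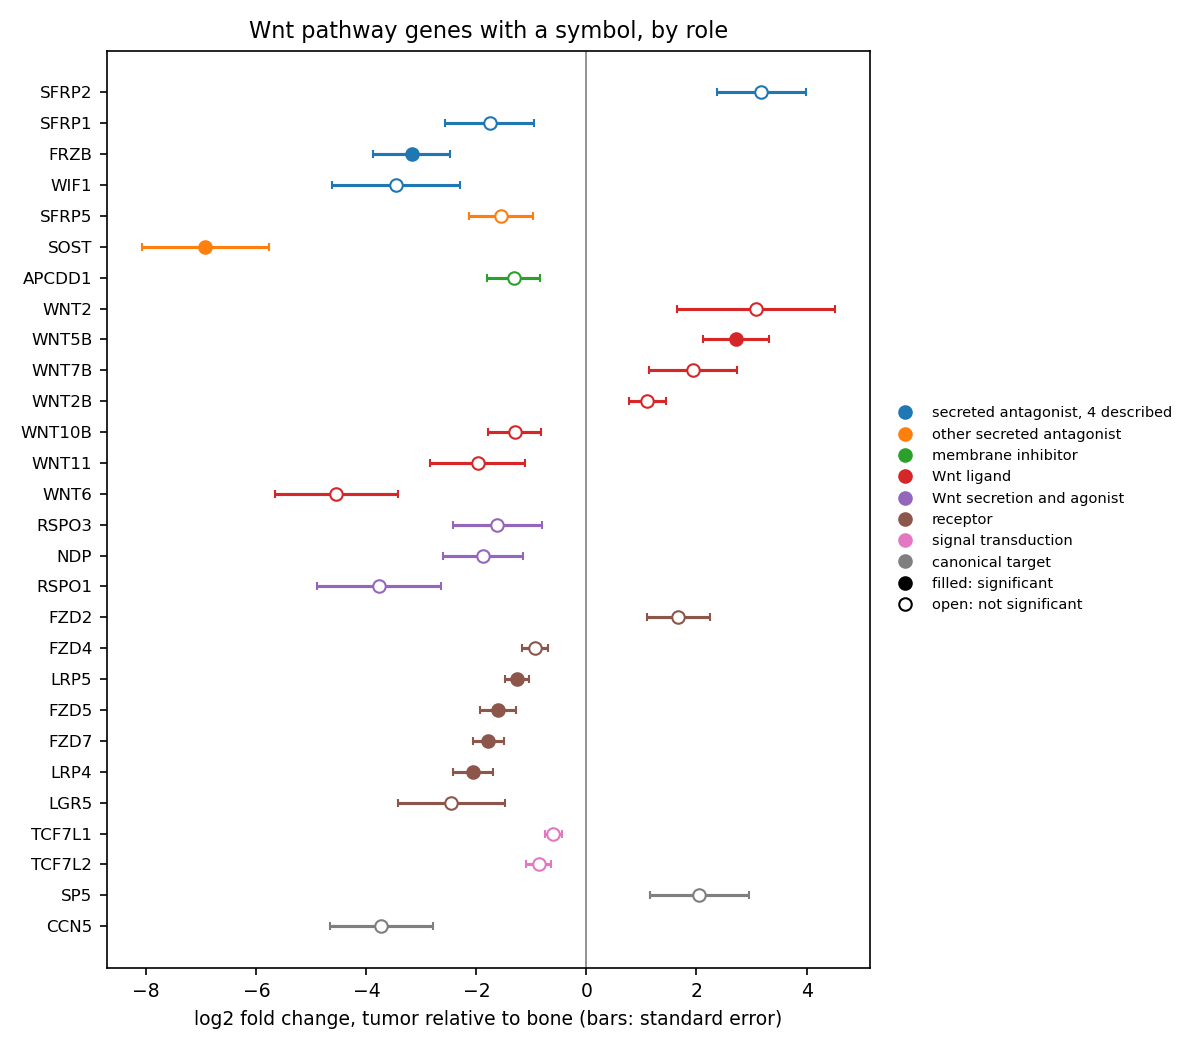
Log2 fold change of tumor relative to bone for the 28 Wnt pathway genes with a symbol, grouped by role, with bars for the standard error and filled points for genes that passed all thresholds. FZD7, LRP4, LRP5, FZD5, FRZB and SOST are filled on the lower side and WNT5B (2.72) on the higher side.

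Bone and tumor also differed in the RNA of cell type markers, and in these bulk samples fewer cells of a type and less RNA per cell cannot be told apart. Symbols were held for 5 of 6 osteocyte markers, whose summed normalized counts were 7723 to 134058 in bone and 111 to 13329 in tumor, with 2 of 5 significantly lower. The counts of lower markers here stand beside 1.79% of all genes and 18.8% of genes with a symbol, and for the shorter lists they are too small to read against these. SOST is one of the osteocyte markers, and FGF23 had 0 reads in the tumors of dogs C, D and F. For 4 of 10 osteoblast markers the sums were 62948 to 160696 and 7806 to 52424, with 2 of 4 lower. For 3 of 10 chondrocyte markers they were 4035 to 151085 and 184 to 22285, with 1 of 3 lower and COL9A1 at 0 in the tumor of dog B. For 6 of 7 adipocyte markers they were 13308 to 82806 and 1425.0 to 6268, with 6 of 6 lower. For 7 of 8 osteoclast markers they were 117477 to 531075 and 6384 to 618012, with 1 of 7 lower.

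The 5 proliferation genes were all higher, beside 15.5% of genes with a symbol, with sums of 744 to 1762 in bone and 3843 to 25286 in tumor. A single marker each had a symbol for tendon and fibroblasts (DCN), endothelium (EMCN) and skeletal muscle (ACTA1), with log2 fold changes of -1.16, -0.97 and 2.40, none of which passed in edgeR's test. Markers of macrophages, T cells and erythroid cells had no symbol. Bone carried the markers of osteocytes and osteoblasts in all 7 libraries. The bones of dogs E and F, which held the least FRZB and also the least SFRP2 and SFRP1, had the highest osteocyte sums, 134058 and 104110.0. The tumor of dog C, which held the most WIF1, had an osteocyte sum of 13329. The tumor of dog E had a sum of 12218 and a WIF1 level of 5286, below the median of the tumors. These 2 sums were made up differently, with SOST at 313 in dog C and 3696 in dog E. The part of these cells in the levels of the antagonists was not tested.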

How the data were processed

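Polyadenylated RNA of bone and tumor from 7 dogs was sequenced in 14 libraries. Per the labels and the study's methods, the authors trimmed reads with Trimmomatic, mapped them to CanFam3.1 with HISAT2 2.2.1 and counted them per Ensembl gene with StringTie 1.3.3. The deposited values are raw counts, 1 column per library. Strand and multi-mapping settings are not given in the sources used here.

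For the comparison of the 2 tissues, a quasi-likelihood model with terms for dog and tissue was fitted in edgeR 4.0.16 (R 4.3.3). TMM factors scaled the libraries, the 27655 genes having 1 count or more were kept, and p-values were adjusted over all of them after Benjamini and Hochberg. Genes were called significant at an adjusted p under 0.05, a mean over 10 normalized counts and a fold change over 2, the thresholds of the study. DESeq2 1.42.0 gave size factors, the variance-stabilized counts and an alternative test, and limma 3.58.1 another. The code was tested on simulated data. Each tissue of each dog is 1 library, so p-values measure the spread between dogs and intervals on a single ratio cover counting error only. The 2 libraries of a number come from the same animal and were paired. Their deviations from the tissue means correlated at 0.0730 to 0.164 over 15566 genes, against a median of -0.0189 between dogs.

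The genes and lists were chosen with earlier results of these data known. Named are the 6 listed antagonists, from each pathway list up to 4 genes of smallest p plus every significant one, and the 3 genes most like each antagonist. FZD2 was added outside this rule. Alternatives were DESeq2 size factors, a filter on low counts, the DESeq2 Wald test, limma-voom, no term for dog, each dog left out, dogs A and B left out, and an exact permutation test of the single differences. No length or coordinate of the CanFam3.1 build was used here. The result of 1 marker list is not reported here.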

Additional observations from a re-analysis of the deposited data

Results flagged for a closer look

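Each of 18 groups of 7 values (4 antagonists, SFRP5 and SOST, each in bone, in tumor and as the difference between them) was compared by Dixon's criterion, which chance meets in about 1 in 20 groups. In 1 of the 18 groups a value stood apart. The difference of SFRP2 between tumor and bone in dog E was 8.63 on the variance-stabilized log2 scale. Its gap to the next dog made up 0.611 of the range, above the critical value for 7 values. The study had already reported this value, with SFRP2 as the most upregulated gene of dog E. The flag therefore restates a known value and is no independent evidence. Neither library of dog E stood apart by the same criterion within its own tissue.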

How the results depend on the processing

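Over 56 values of the 4 antagonists under the alternatives, 0 changed direction, 40 kept their side of the threshold, 10 came to pass and 6 ceased to pass. Of the 10, 3 did so by the unadjusted p of the exact permutation test, which has no fold threshold, and 7 by all thresholds. For the 24 other pathway genes, 0 of 312 values changed direction, 265 kept their side, 31 came to pass and 16 ceased to pass. The number of significant genes, 866, was 2038 with the DESeq2 Wald test and 1404 with limma-voom, 551 to 750 with 1 dog left out (551 without dog B) and 270 without dogs A and B. With the DESeq2 Wald test SFRP2 (log2 fold change 3.19, adjusted p = 7.28e-06), WIF1 (-3.45, 6.76e-05) and SFRP1 (-1.79, 0.0448) also passed, but the study called genes with that test on these libraries and the 4 were found through its tables, so these passes are no support. With limma-voom SFRP2 (3.60, 0.0245) and WIF1 (-3.91, 0.0369) passed. These passes and those that follow rest on the same libraries, so they are no independent support either. Without the dog as a term (no replicate block) SFRP2 passed (3.60, adjusted p = 0.0309). The exact permutation test of the 7 single differences, two-sided and unadjusted, gave means of 3.44 for SFRP2 (p = 0.0156, the smallest it can give), -3.22 for WIF1 (p = 0.0469) and -0.84 for SFRP1 (p = 0.0312). With each dog left out, the log2 fold change was 2.63 to 3.57 for SFRP2, -3.64 to -2.71 for FRZB, -4.15 to -2.82 for WIF1 and -2.20 to -1.24 for SFRP1, and FRZB was -2.90 without dogs A and B. DESeq2 size factors in the edgeR test, and the removal of low counts by filterByExpr, changed no call of the 4. With 2 and 3 reads of SFRP1 in 2 tumors, its change there is known only within its counting interval.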
